A study of Mus musculus with 4 samples.

Results

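The genes described here encode the enzymes that make cholesterol and fatty acids, together with the proteins that set their transcription. They were taken from a list of 33 genes, each read from the array's probe sets that carry its symbol and no other. Of these, 32 were found, on 74 probe sets, among 18194 genes named on the array, and all 32 passed a filter on low values that left 12098 genes for comparison. Acat2, which encodes the cytosolic acetyl-CoA acetyltransferase that opens the pathway, had no such probe set and was not analysed here. Where a gene had several probe sets, the brightest on average stood for it.

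The cells were murine embryonic stem cells (CM7/1), which are pluripotent cells from the early embryo, and carried either Hey1 or Hey2 for overexpression. Hey1 and Hey2 are basic helix-loop-helix transcriptional repressors downstream of Notch receptors. The cells carrying Hey1 (the Hey1 line) were profiled uninduced and after 1000 ng/ml doxycycline for 48 h, and so were the cells carrying Hey2 (the Hey2 line), which gave 4 arrays with 1 array in each group. No array came from cells without either factor, so an effect of doxycycline itself and an effect of the factor it was meant to induce cannot be told apart. The labels do not say whether a line was a clone, or whether its arrays came from separate cultures. In bulk RNA, fewer cells of a type and less RNA per cell cannot be told apart.

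Cholesterol is built from acetyl-CoA through mevalonate, the isoprenoid units, squalene and a series of sterols, and fatty acids are built from the same acetyl-CoA. Membrane-bound SREBP transcription factors, encoded by Srebf1 and Srebf2, are escorted by Scap to the Golgi when sterols are low, are cut there and then activate most of the enzyme genes. Insig1 and Insig2 hold Scap in the endoplasmic reticulum when sterols are high. SREBP sites in promoters commonly lie beside CCAAT boxes, bound by NF-Y, and GC boxes, bound by Sp1. Hey factors bind E-boxes.

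Promoter sequence was available in RefSeq (GRCm38.p6) for 25 of the 32 genes, as 300-base windows that run from 250 bases before to 50 bases after a transcription start. Both strands were searched, and a gene counted if any of its windows held a match. The sterol regulatory element form TCACNCCAC was found in 1 of the 25 genes, Hmgcs1, against 1.44% of all 27025 genes with a window. The CCAAT box (CCAAT or ATTGG) was found in 21 of the 25 against 41.1% of all genes, and the GC box (GGGCGG or CCGCCC) in 20 of the 25 against 38.2%. The E-box form CACGTG was in 6 of the 25 (8.09% of all genes) and CACGCG in 7 of the 25 (10.5%). These shares are a description, and the base composition of the windows was not matched.

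The 250 bases before the transcription start of the window are shown for 6 genes, written 5′ to 3′ on the strand of the gene. For Fasn and Hsd17b7 that start lies inside the annotated gene, downstream of its outermost 5′ end. Hmgcs1 is shown as the single gene with the sterol regulatory element form, which is in capitals (chr13:119690101-119690350, plus strand).
Hmgcs1: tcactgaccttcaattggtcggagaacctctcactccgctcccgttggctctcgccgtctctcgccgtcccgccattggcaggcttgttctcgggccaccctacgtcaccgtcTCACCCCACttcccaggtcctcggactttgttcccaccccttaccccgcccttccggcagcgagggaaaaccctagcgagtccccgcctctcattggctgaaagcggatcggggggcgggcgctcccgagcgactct

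Srebf2 and Fasn are shown because they read higher in the Hey2 line, and Ebp and Hsd17b7 because they read lower there. CCAAT boxes on either strand are in capitals, 1 in Srebf2 (chr15:82147019-82147268, plus strand), 3 in Fasn (chr11:120824548-120824797, minus strand), 2 in Ebp (chrX:8193513-8193762, minus strand) and 3 in Hsd17b7 (chr1:169969206-169969455, minus strand). In Fasn 2 of the 3 overlap on opposite strands.
Srebf2: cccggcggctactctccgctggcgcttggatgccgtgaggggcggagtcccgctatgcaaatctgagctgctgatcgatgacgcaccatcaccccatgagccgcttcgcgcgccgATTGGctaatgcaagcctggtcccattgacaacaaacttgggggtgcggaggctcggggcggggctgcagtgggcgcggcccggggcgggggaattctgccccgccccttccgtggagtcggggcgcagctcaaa
Fasn: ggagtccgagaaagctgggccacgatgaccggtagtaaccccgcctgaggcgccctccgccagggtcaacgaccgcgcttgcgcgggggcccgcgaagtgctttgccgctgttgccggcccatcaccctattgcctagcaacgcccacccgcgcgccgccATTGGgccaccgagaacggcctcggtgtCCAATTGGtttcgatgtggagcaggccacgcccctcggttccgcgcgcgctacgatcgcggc
Ebp: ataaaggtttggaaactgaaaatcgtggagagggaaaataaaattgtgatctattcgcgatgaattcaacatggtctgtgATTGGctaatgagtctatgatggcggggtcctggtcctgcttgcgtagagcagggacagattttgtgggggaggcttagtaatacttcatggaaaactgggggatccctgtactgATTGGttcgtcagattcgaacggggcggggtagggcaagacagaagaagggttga
Hsd17b7: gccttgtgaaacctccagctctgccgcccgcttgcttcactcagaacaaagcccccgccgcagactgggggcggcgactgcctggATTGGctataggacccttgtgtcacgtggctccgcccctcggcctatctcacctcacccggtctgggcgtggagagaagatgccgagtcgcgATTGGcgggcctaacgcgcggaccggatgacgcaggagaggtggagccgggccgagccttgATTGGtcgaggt

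Insig1 is shown for its CACGTG, in capitals (chr5:28071162-28071411, plus strand), since E-boxes are the kind of site Hey factors bind.
Insig1: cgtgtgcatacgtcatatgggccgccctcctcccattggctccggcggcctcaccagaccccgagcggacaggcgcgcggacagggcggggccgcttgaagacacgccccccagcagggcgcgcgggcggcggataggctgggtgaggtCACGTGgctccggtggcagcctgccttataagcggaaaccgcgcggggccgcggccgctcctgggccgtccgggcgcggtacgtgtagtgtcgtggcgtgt

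Values are log2 probe set summaries, so a difference of 1 is a 2-fold difference and 1.5-fold is a difference of 0.58. For each introduced factor only its brightest probe set on average was looked up, and neither showed a clear rise with the label. Hey1 read 6.73 uninduced and 6.51 induced in the Hey1 line, and Hey2 read 4.25 uninduced and 4.34 induced in the Hey2 line. The Hey2 probe set lay below the filter of 6.05 on every array. It was not tested whether these probe sets can read the introduced transcripts, so every direction given here follows the array's label. All 8 embryonic stem cell markers looked up were measured well above the filter of 6.05, with 10.9 as their lowest value. Of 7 fibroblast markers, as feeder cells would show, 5 stayed below the filter on every array, between 4.29 and 5.88. Of 6 markers of extraembryonic endoderm 5 did so, as did the fat cell markers Adipoq and Fabp4.

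**Figure D1:**
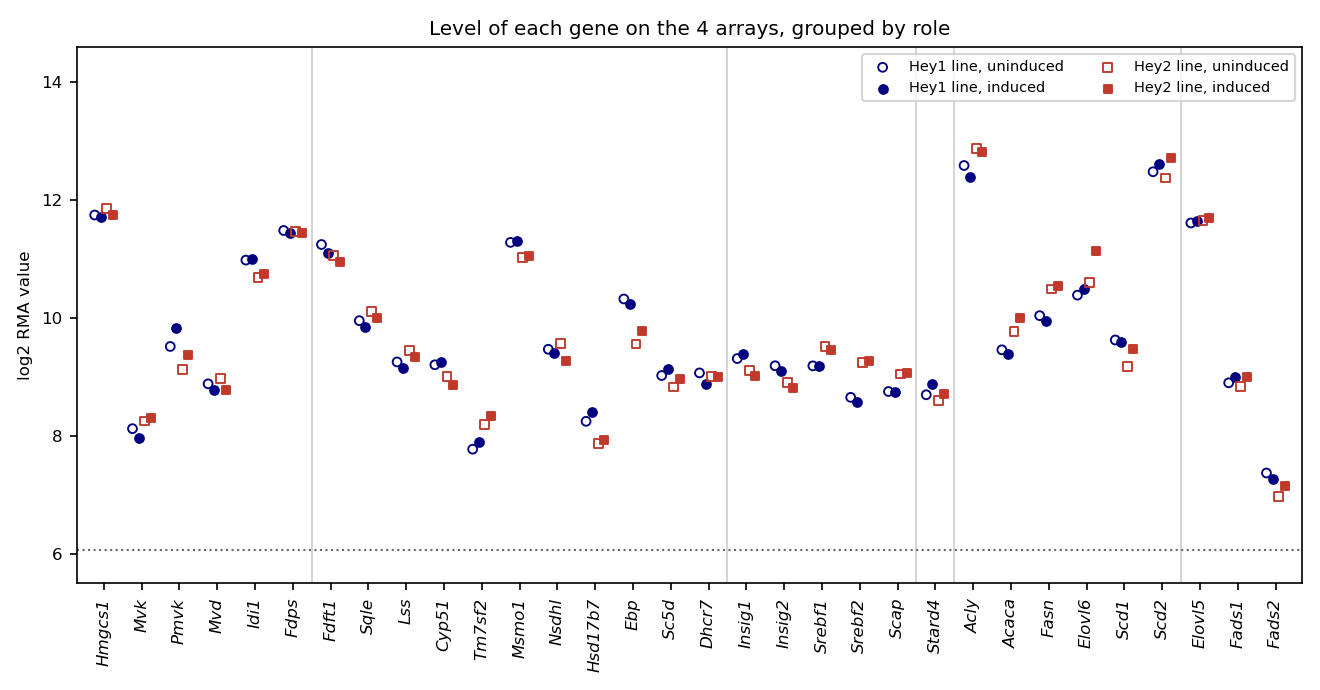
Log2 RMA value (y axis) of the probe set that stands for each of 32 genes on the 4 arrays, in pathway order within each role from mevalonate steps (left) to polyunsaturated fatty acids (right). Circles are the Hey1 line and squares the Hey2 line, open uninduced and filled induced, and the dotted line is the level filter of 6.05. Levels of different genes come from different probes and cannot be compared. For most genes the 4 symbols lie close together, and for Ebp, Srebf2 and Elovl6 they spread over 0.76, 0.69 and 0.75.

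With doxycycline, cholesterol and fatty acid synthesis genes differed little in either line. None of the 32 was at least 1.5-fold different in the Hey1 line (2.42% of all genes compared), and none in the Hey2 line (5.48%). At those shares a list of this size would hold few such genes, and the counts do not set it apart. The median difference of the 32 was -0.03 in the Hey1 line (-0.01 over all genes compared). In the Hey2 line it was 0.03 (-0.02 over all), and -0.02 when a gene's probe sets were averaged. Above 0 were 13 of 32 in the Hey1 line (46.8% of all genes) and 19 of 32 in the Hey2 line (45.6% of all genes). Both induced arrays lay above both uninduced arrays for 3 of 32 (12.6% of all genes), Fads1, Scd2 and Stard4, and below for 4 (18.3%), Dhcr7, Fdps, Mvd and Nsdhl. The other Fads1 probe set went the other way, with differences of -0.11 (Hey1) and -0.38 (Hey2). The other Mvd probe set kept its direction, with -0.08 and -0.34. With 1 array per group these differences have no replicate check and no test.

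Among the mevalonate enzymes, Pmvk had the largest difference of the 32 in the Hey1 line. Pmvk encodes phosphomevalonate kinase. Its probe set read 9.52 uninduced and 9.83 induced in the Hey1 line, and 9.13 uninduced and 9.37 induced in the Hey2 line. The induced value was higher in each line, by 0.32 and 0.24, and the values of the Hey2 line lay below those of the Hey1 line. Fdps, which encodes farnesyl diphosphate synthase, stood at the middle of its group and read 11.49, 11.45, 11.47 and 11.45 (Hey1 uninduced, Hey1 induced, Hey2 uninduced, Hey2 induced, the order of all such series below). Its whole range over the 4 arrays was 0.04, the narrowest of the 32. The HMG-CoA synthase gene Hmgcs1 differed by -0.03 and -0.11, the mevalonate kinase gene Mvk by -0.16 and 0.04, the decarboxylase gene Mvd by -0.10 and -0.20, and the isomerase gene Idi1 by 0.01 and 0.06, each in the Hey1 and then the Hey2 line.

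Of the 11 enzymes from squalene synthase to cholesterol, 5 were above 0 in each line (46.8% and 45.6% of all genes), with medians of -0.07 and -0.001. Nsdhl, a sterol dehydrogenase of C4 demethylation, had the largest difference of this group in the Hey2 line, with values of 9.47, 9.40, 9.57 and 9.27. Its induced value was the lower in each line, by 0.07 (Hey1) and by 0.30 (Hey2). Cyp51, the lanosterol demethylase gene, read 9.21, 9.25, 9.00 and 8.86, so its differences of 0.04 and -0.14 had opposite signs. The other 9 (Fdft1, Sqle, Lss, Tm7sf2, Msmo1, Hsd17b7, Ebp, Sc5d and Dhcr7) lay between -0.18 and 0.16 in the Hey1 line and between -0.12 and 0.22 in the Hey2 line. Squalene epoxidase, encoded by Sqle and a rate-limiting step after mevalonate, differed by -0.11 in each line.

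The regulators differed little. Srebf1, Srebf2, Scap, Insig1 and Insig2 all lay between -0.09 and 0.08 in the Hey1 line and between -0.10 and 0.02 in the Hey2 line. Srebf2, whose product acts mainly on cholesterol genes, read 8.65 uninduced and 8.58 induced in the Hey1 line and 9.25 and 9.27 in the Hey2 line. Its other probe set differed by -0.16 and -0.24. Insig1, a gene that SREBPs activate and whose promoter with CACGTG is shown above, read 9.31, 9.39, 9.11 and 9.01. Neither its small higher value in the Hey1 line nor its small lower value in the Hey2 line exceeded the spread of all genes, a scaled median absolute deviation of 0.16 and 0.22. Stard4, a cytosolic sterol carrier, read 8.70, 8.89, 8.60 and 8.71 and differed by 0.19 and 0.11. Its other probe sets differed by 0.17 and 0.19 in the Hey1 line but by -0.12 and -0.19 in the Hey2 line.

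Fatty acid synthesis and desaturation genes were the group in which the lines' differences parted most. Of Acly, Acaca, Fasn, Elovl6, Scd1 and Scd2, 2 of 6 were above 0 in the Hey1 line (46.8% of all genes compared). In the Hey2 line 5 of 6 were (45.6%), and the medians were -0.06 (Hey1 line) and 0.27 (Hey2 line). Elovl6, which extends palmitate to stearate, read 10.39 and 10.49 in the Hey1 line and 10.60 and 11.14 in the Hey2 line. The induced Hey2 array stood above the other 3, and the differences were 0.10 and 0.54. Scd2, a stearoyl-CoA desaturase gene, read 12.48, 12.61, 12.38 and 12.72, higher in the induced arrays by 0.12 and 0.34. Its relative Scd1 read 9.63, 9.59, 9.17 and 9.47, with differences of -0.04 and 0.30, and here the uninduced Hey2 array was the low value. The other Scd1 probe set differed by 0.26 and 0.46. Scd1 and Scd2 are close paralogs, and how far their probe sets read each other was not tested.

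Acaca, the acetyl-CoA carboxylase gene, read 9.46, 9.38, 9.77 and 10.00, with differences of -0.08 and 0.23. Averaged with its other probe set, which lies below the filter, the Hey2-line difference of Acaca was -0.02 and the difference between the lines' responses 0.02. Acly, whose product makes cytosolic acetyl-CoA from citrate, read 12.59, 12.39, 12.87 and 12.81 and differed by -0.20 and -0.06. Its second probe set, about as bright, differed by 0.05 and 0.11, so the sign for Acly depends on the probe set. Fasn, the fatty acid synthase gene, read 10.04, 9.95, 10.49 and 10.54, with differences of -0.09 and 0.05. Subtracted gene by gene, the Hey2-line difference was the more positive for 6 of these 6 genes, by 0.14 for Fasn up to 0.43 for Elovl6, where 48.7% of all genes compared were more positive in the Hey2 line. None of the 32 genes reached 1.5-fold in this subtraction, where 4.96% of all genes did. All 4 arrays enter this subtraction, so no spread remains for a test. On the probe set that stands for each gene, Elovl5, Fads1 and Fads2 of polyunsaturated fatty acids differed by 0.04, 0.17 and 0.17 in the Hey2 line. In the Hey1 line they differed by 0.04, 0.10 and -0.10. The other Fads1 probe set differed by -0.11 (Hey1) and -0.38 (Hey2), so its sign was the opposite in each line. The other Fads2 probe sets differed by 0.04 and -0.13 in the Hey1 line and by -0.09 and 0.14 in the Hey2 line. That of Elovl5 differed by 0.03 and 0.12. Elovl5 read 11.61, 11.65, 11.66 and 11.70.

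**Figure D2:**
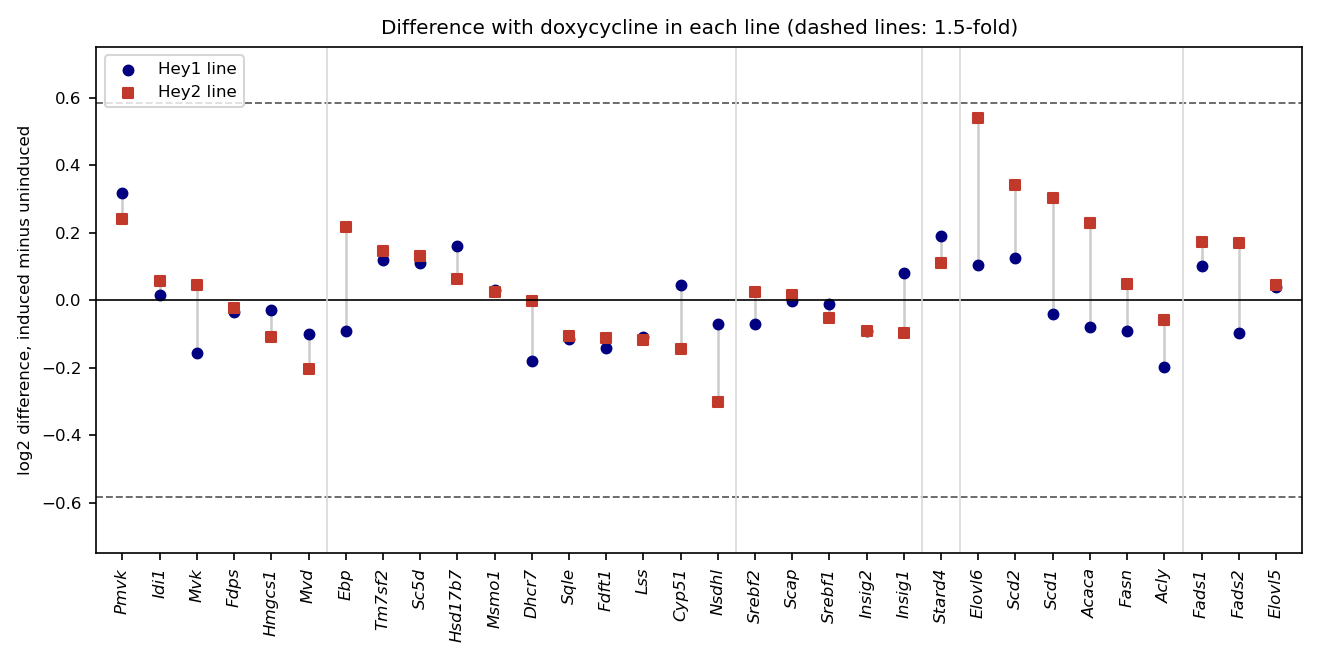
Log2 difference with doxycycline, induced minus uninduced (y axis), for each of 32 genes, in the Hey1 line (circles) and the Hey2 line (squares), with a grey line joining the values of a gene, genes grouped by role and dashed lines at 1.5-fold. Elovl6 in the Hey2 line, at 0.54, comes nearest to a dashed line, and the SREBP, Scap and Insig genes lie within 0.10 of 0.

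Several genes gave different pictures by different probe sets, as the plot of single probe sets shows. For Elovl6, the other probe sets had differences of 0.03 and -0.42 in the Hey1 line and of 0.31 and 0.69 in the Hey2 line, so the Hey2-line difference was positive on each of 3 while the Hey1-line sign varied. For Scd2 all 3 were positive in the Hey2 line (0.34, 0.30 and 0.50) and 1 of 3 in the Hey1 line. Hmgcs1 was negative in the Hey2 line on each of 4 probe sets above the filter, from -0.24 to -0.11, and ran from -0.04 to 0.20 in the Hey1 line. Idi1 differed by 0.48 (Hey1) and -0.18 (Hey2) on its other probe set. Of 20 genes with several probe sets above the filter, all probe sets shared a sign for 7 in the Hey1 line and for 11 in the Hey2 line.

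**Figure D3:**
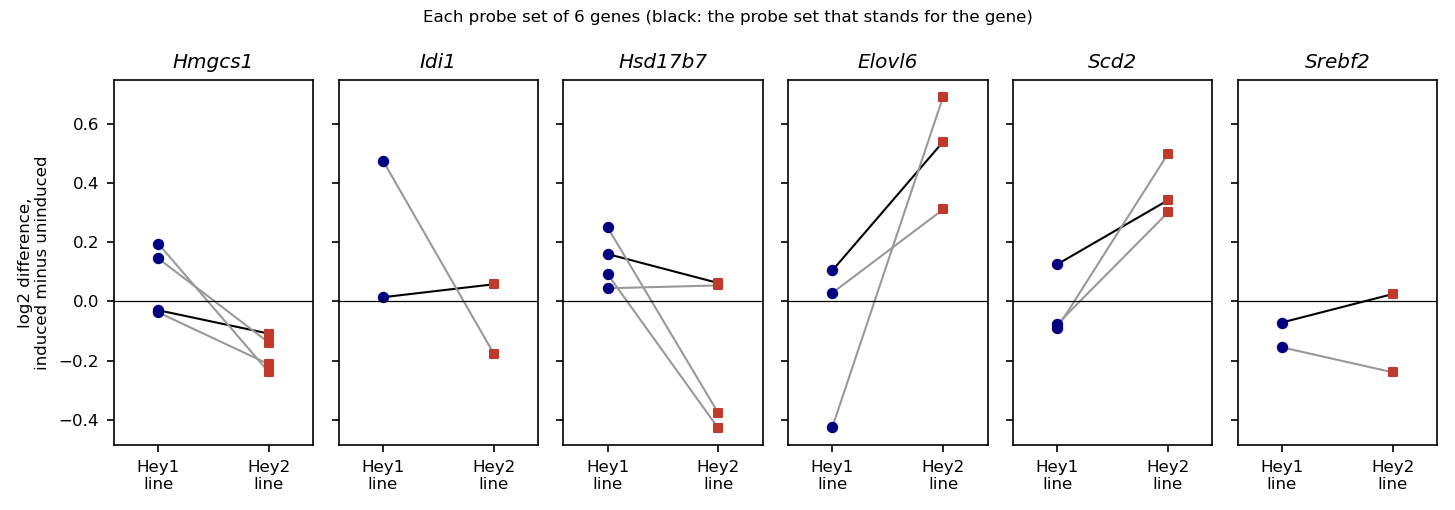
Log2 difference, induced minus uninduced (y axis), in the Hey1 line (circles) and the Hey2 line (squares) for every probe set above the level filter of 6 genes, with a line joining the values of a probe set. Black lines mark the probe set that stands for the gene. Elovl6 and Scd2 slope upward on all 3 probe sets and Hmgcs1 downward on all 4, while those of Hsd17b7, Idi1 and Srebf2 run in different directions.

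The response common to both lines was tested with limma across all 12098 genes, with the line as a block. None of the 32 genes passed an adjusted p of 0.05, as none of all genes did (0%), and the lowest adjusted p among the 32 was 0.332, for Pmvk (mean difference 0.28 ± 0.08, SE, 2 lines, higher in 2 of 2). At an unadjusted p of 0.05 by limma, 1 of the 32 was higher, Pmvk, and 0 were lower, against 13.2% of all genes either way (6.9% higher and 6.31% lower). Elovl6 (0.32 ± 0.14, adjusted p = 0.411 by limma) and Scd2 (0.23 ± 0.10, adjusted p = 0.409 by limma) followed. The fit has 1 residual degree of freedom and takes induction of Hey1 and of Hey2 as repeats of a single treatment. Its p-values reflect the spread among these 4 arrays alone, which may be technical.

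The lines themselves differed more than either did with doxycycline. In the uninduced arrays 2 of the 32 genes differed at least 1.5-fold between the lines (8.92% of all genes compared), Srebf2 higher in the Hey2 line by 0.59 (4.5% of all genes were higher) and Ebp lower by 0.76 (4.42% were lower). In the induced arrays 4 did (6.71% of all genes), Srebf2 by 0.69, Elovl6 by 0.65, Acaca by 0.62 and Fasn by 0.59, all higher in the Hey2 line (3.95% of all genes, with 2.76% lower). Centring each array on its median left Fasn at 0.57, below 1.5-fold, as an offset of 32 also did, and averaging probe sets left Acaca at 0.34. Srebf2 alone passed 1.5-fold in both states in the same direction, as 2.41% of all genes did on the higher side, and none of the 32 did on the lower side (1.64%). Srebf2 did not reach 1.5-fold between the uninduced arrays with an offset of 32 (0.56), and in both states with its probe sets averaged (0.43 and 0.43). The 2 of 32 between the uninduced arrays and the 1 of 32 in both states were near the shares of all genes. The 4 of 32 between the induced arrays were above the 6.71% either way and the 3.95% higher. That count is small and changed with the processing. The medians of the 32, -0.04 uninduced and -0.0003 induced, were near 0, with genes on both sides.

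The differences between the lines went both ways, also within most roles. For 13 of the 32 genes both arrays of the Hey2 line lay above both arrays of the Hey1 line (27.4% of all genes), and for 12 both lay below (26.6%). Acly, Acaca, Fasn and Elovl6, which lead from citrate to long saturated fatty acids, were all among the higher, and the desaturase gene Scd1 was among the lower. Srebf1, Srebf2 and Scap were higher and their antagonists Insig1 and Insig2 were lower. Of the 11 enzymes from squalene to cholesterol, 6 were lower (Ebp, Hsd17b7, Cyp51, Msmo1, Fdft1 and Sc5d), 3 were higher (Tm7sf2, Lss and Sqle) and 2 overlapped. Other probe sets above the filter were also lower in both states for Cyp51 and Sc5d. For Lss they differed by -0.24 and 0.19 uninduced and by -0.10 and -0.03 induced. Those of Fdft1 differed by -0.34, -0.01 and 0.15 uninduced and by -0.31, 0.18 and 0.05 induced. That of Msmo1 differed by -0.13 uninduced and 0.27 induced. Among the mevalonate enzymes Pmvk and Idi1 were lower and Hmgcs1 and Mvk higher. Between the induced arrays the other Hmgcs1 probe sets above the filter differed by -0.20, -0.33 and -0.11. The other Idi1 probe set differed by 0.03 uninduced and -0.62 induced. All these directions are those of the probe set that stands for the gene. Among 20 genes with several probe sets above the filter, all shared a sign for 12 between the uninduced arrays and for 12 between the induced arrays.

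Single genes show the sizes. Ebp, the sterol isomerase gene, read 10.32 and 10.23 in the Hey1 line and 9.56 and 9.78 in the Hey2 line, so both Hey2-line arrays were low. Hsd17b7, a ketoreductase gene of C4 demethylation, read 8.25 and 8.41 against 7.87 and 7.93, so both Hey2-line arrays were low here too. Its 3 other probe sets read higher in the Hey2 line between the uninduced arrays, by 0.22, 0.05 and 0.04, and between the induced arrays differed by -0.41, -0.47 and 0.05 in the same order, so its direction in the uninduced arrays depends on the probe set. Tm7sf2, a sterol reductase gene, read 7.77 and 7.89 against 8.19 and 8.33. For Srebf2 the other probe set was higher in the Hey2 line too, by 0.26 and 0.17. Across the 32 genes the difference of the uninduced arrays and that of the induced arrays, which share no array, correlated at r = 0.88 by Pearson and at rho = 0.89 by Spearman (0.67 and 0.59 over all genes compared). This is a description across genes, which are not independent replicates.

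**Figure D4:**
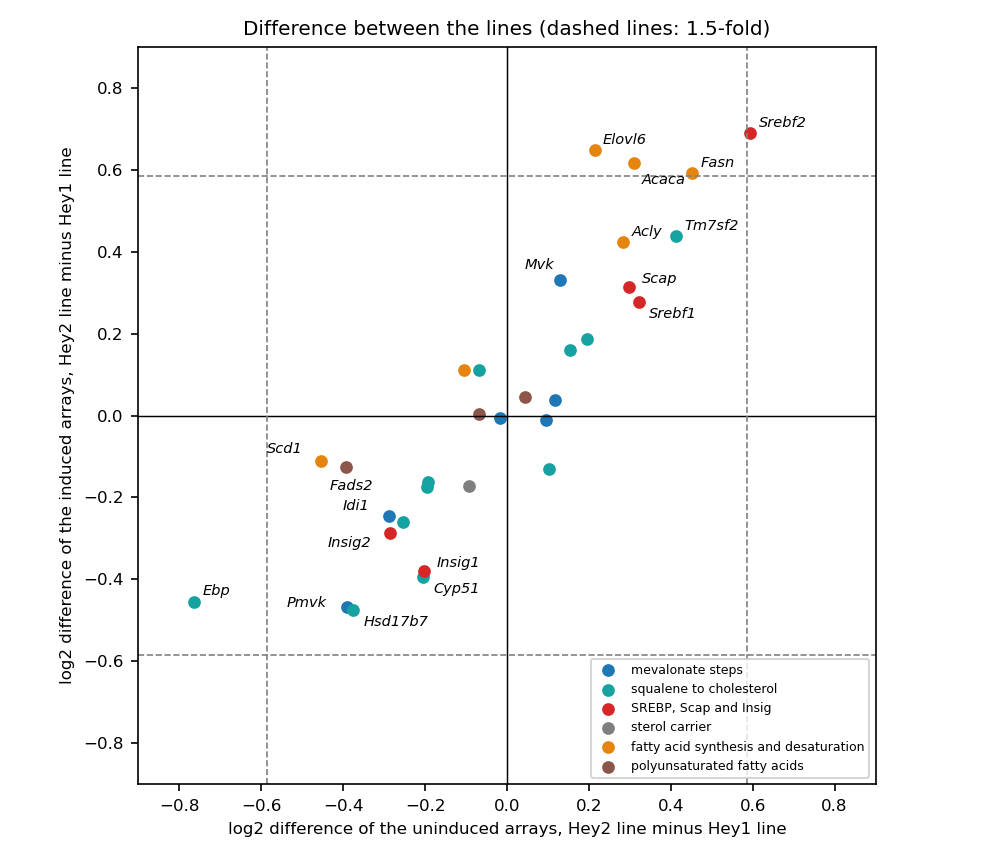
Log2 difference of the Hey2 line minus the Hey1 line for 32 genes, between the uninduced arrays (x axis) and between the induced arrays (y axis), coloured by role, with dashed lines at 1.5-fold. Srebf2 lies beyond 1.5-fold on both axes, Fasn, Acaca and Elovl6 on the y axis and Ebp on the x axis.

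With the state as a block, limma called 0 of the 32 genes between the lines at an adjusted p of 0.05 and 111 of all genes (0.918%). The lowest adjusted p among the 32 were those of Srebf2 (0.64 ± 0.08, SE, adjusted p = 0.055, higher in the Hey2 line in 2 of 2 states) and Fasn (0.52 ± 0.09, adjusted p = 0.067, higher in 2 of 2), followed by Ebp (-0.61 ± 0.11, adjusted p = 0.074, lower in 2 of 2). At an unadjusted p of 0.05, 8 were higher (15.2% of all genes) and 8 lower (13.1%), against 28.3% of all genes either way. The call depends on the prior. With a robust, level-dependent prior limma called 17 of the 32, 8 higher and 9 lower, where 24.2% of all genes were called, and on the genes above a filter of 8.31 it called 13 of 30 (25.3% of all). This fit takes the uninduced and induced arrays of a line as repeats of that line, with 1 residual degree of freedom. Its SE and p-values reflect the spread among these 4 arrays and not the spread between separately made lines. Each line is a single source of cells, so the introduced factor and any other difference between the lines cannot be told apart. Of the fibroblast markers, Thy1 read 7.13, 7.80, 5.51 and 5.73, lower in the Hey2 line, while Col1a2, near the filter, differed between the lines by 0.23 uninduced and -0.24 induced. Of the 8 stem cell markers, 3 were higher in the Hey2 line in both states and 3 lower, from Nanog (-0.54 and -0.36) to Utf1 (0.24 and 0.26), with medians of -0.01 and -0.02. The neuroectoderm marker Sox1 read 8.14, 7.35, 7.05 and 5.98, lower in the Hey2 line and in each induced array, while the other 3 neuroectoderm markers ranged from 6.17 to 7.68. Of 4 mesoderm and heart markers, all near or below the filter, Myh6 was higher in each induced array (by 0.46 and 0.88), Nkx2-5 differed by -0.51 and -0.75, Mesp1 by 0.09 and 0.02, and Tnnt2 stayed below the filter. The part of these genes' cells in the differences above was not tested.

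Other genes of lipid supply also differed little with doxycycline. None of 20 further genes of sterol and lipid supply reached 1.5-fold in either line. Above 0 were 11 of 20 in the Hey1 line (46.8% of all genes) and 9 of 20 in the Hey2 line (45.6%), with medians of 0.02 and -0.01. Of 10 measured genes of sterol uptake, storage and efflux, Vldlr, a receptor for triglyceride-rich lipoproteins, was at least 1.5-fold higher in the Hey2 line (3.02% of all genes). Vldlr read 7.74 and 8.02 in the Hey1 line and 7.52 and 8.20 in the Hey2 line, higher when induced by 0.28 and 0.69. The medians of that list were -0.09 and -0.14. Among 9 genes of fatty acid oxidation above the filter 7 were above 0 in each line (46.8% and 45.6% of all genes compared). Their medians were 0.10 and 0.10 (-0.01 and -0.02 over all genes), and none reached 1.5-fold.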

How the data were processed

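Total RNA was hybridised to Affymetrix arrays, per the labels' protocols. The authors deposited log2 values made with RMA, per the submitters' processing notes. RMA in its usual form corrects background, quantile-normalises and summarises probe sets. The log2 scale was read from the values (2.67 to 15.2). The version is not stated. The 4 arrays share a single distribution, so a shift shared by all genes would not show. Their number limits the precision.

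Of 45101 probe sets 34958 had a single symbol in the platform annotation. A gene was compared if its highest value reached 6.05, the median of all values. Differences of single arrays were taken with no test. Limma 3.58.1 in R 4.3.3 (Benjamini-Hochberg at 0.05) was tested on simulated data for the common response over 12098 genes. True log2 changes of 0.5 were found in 0.746%, of 1 in 62.9% and of 2 in 96.3%, and 7.77% of calls were false. The simulation drew normal noise with variances from limma's own fitted prior and changed 200 genes in each of 20 draws. The rates hold for those settings, and whether the real arrays match them was not tested. Python 3.11.15 did the rest. All 32 gene identifiers matched RefSeq.

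The members, lists and tests were chosen with earlier results of these data known. By rule, values on every array are given for genes at 1.5-fold in either line, the 3 with the largest difference in each of 5 comparisons and 1 or 2 at the median of each role. Fasn, Tm7sf2, Hsd17b7 and Insig1, and the single probe sets described, were chosen after their values were seen. Idi1, Insig2, Srebf1, Scap and Hmgcs1 were also singled out after their values were seen. Alternatives were the filter, cyclic loess, median centring, an offset of 32, the probe set rule, the reference array, the prior, the block and leaving out each array.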

Additional observations from a re-analysis of the deposited data

Results flagged for a closer look

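In 3 probe sets the 2 lines differed in opposite directions with doxycycline, each by more than the scaled median absolute deviation of all genes in that line (0.16 and 0.22). The difference between the lines was not tested, since each has 1 pair of arrays. The third-brightest Elovl6 probe set read 6.92 uninduced and 6.50 induced in the Hey1 line and 6.38 and 7.07 in the Hey2 line, so the Hey2-line difference exceeded the Hey1-line difference by 1.12. The second Hsd17b7 probe set read 7.72 and 7.97 against 7.94 and 7.56, a gap of -0.63. The third Hmgcs1 probe set read 11.40 and 11.59 against 11.50 and 11.26, a gap of -0.43. They are 3 of 65 probe sets above the filter, and 3.98% of all such probe sets met the same criterion. None of the 3 is the probe set that stands for its gene. Over the probe sets that do, 10 of 32 genes had opposite signs in the lines (36.1% of all genes compared).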

How the results depend on the processing

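The median difference of the 32 genes stayed between -0.05 and 0.04 in all 5 comparisons under every alternative run. In the Hey2 line it turned from 0.03 to -0.02 with the mean of probe sets, with every probe set and against the other line's uninduced array. Against that array 3 genes reached 1.5-fold for Hey1 and 2 for Hey2. With every probe set on its own, 1 reached it in the Hey2 line and 4 in the subtraction of the lines' differences. Averaging probe sets gave 40.6% above 0 in the Hey2 line (59.4% as reported), 1 gene at 1.5-fold between the uninduced arrays, 2 between the induced arrays and 1 in the subtraction, and an offset of 32 gave 1 between the uninduced arrays. The common response called 0 of the 32 genes under every alternative. Over all genes it called 4 with the filter of 8.31, 433 with the level-dependent robust prior, and 0 to 5 with an array left out and no block. Between the lines, the 32 genes held 13 calls with the filter of 8.31, 1 with cyclic loess, 5 with the offset, 1 with the mean of probe sets and 17 with the robust prior. All genes held 1864, 423, 1127, 554 and 2933, and 5 without the block. Of 704 values of single genes under alternatives, 41 moved by more than the spread over all genes. They were 16 Hey1-line and 13 Hey2-line differences against the other line's uninduced array, and 12 values with probe sets averaged. A changed filter cannot move a gene's own difference, so the total of 704 says little. A reversal was scored only for differences of 1.5-fold or more, which lay between the lines and not within them, and 0 reversed. The labels give no replicate numbers to block by. The common response was already paired within lines and the line comparison within states, and without these blocks limma called 0 of the 32 genes in either. With 1 array per group, small differences were not detectable.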
